A study of Mus musculus with 6 samples.

Results

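The miR-200 family, the miR-183 cluster, miR-203 and miR-205 are miRNAs of epithelia and sensory organs, and their 10 main mature arms were followed here in mouse heart. They were taken by name from a table of 1966 mature miRNA rows: miR-200a-3p, miR-200b-3p, miR-200c-3p, miR-141-3p, miR-429-3p, miR-203-3p, miR-205-5p, miR-183-5p, miR-182-5p and miR-96-5p. Small RNA came from hearts of 3 male wild-type mice with transverse aortic constriction (TAC; animals 29, 78 and 81) and 3 male wild-type mice with sham surgery (animals 47, 68 and 69), collected 8 weeks after the operation. In TAC a suture narrows the aortic arch, so that the left ventricle has to pump against raised pressure, and sham mice are operated on without the narrowing. The labels give 1 library per mouse, no age and no strain, and they do not say which part of the heart was taken. The samples are whole tissue, in which fewer cells of a type and less RNA per cell cannot be told apart.

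Mature miRNAs guide silencing complexes to messenger RNAs, mainly through the seed at the 5′ end of the miRNA. miR-200 family members and miR-205 are abundant in epithelial cells, where they are known for repressing the transcription factors Zeb1 and Zeb2 and so for holding cells in the epithelial state. miR-203 is known from skin, where it limits the renewal of epidermal progenitors. miR-183, miR-96 and miR-182 come from a single transcript that is abundant in photoreceptors, hair cells of the inner ear and sensory neurons. Heart muscle is not a tissue in which these miRNAs are known to be abundant.

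The mature sequences (RefSeq, GRCm38.p6, matched for 10 of 10 members at the same coordinates as the rows) are given because they set which members can be mistaken for each other and which share a seed. They are written 5′ to 3′, with the seed, bases 2 to 8, in capitals.
miR-200b-3p: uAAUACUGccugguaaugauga
miR-200c-3p: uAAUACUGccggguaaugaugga
miR-429-3p: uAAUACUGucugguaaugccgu
miR-200a-3p: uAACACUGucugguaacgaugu
miR-141-3p: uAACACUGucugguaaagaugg
miR-182-5p: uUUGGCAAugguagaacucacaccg
miR-96-5p: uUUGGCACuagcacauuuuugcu
miR-183-5p: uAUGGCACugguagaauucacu
miR-205-5p: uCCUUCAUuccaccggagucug
miR-203-3p: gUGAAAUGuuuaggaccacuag

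By seed the miR-200 family has 2 sets: miR-200b-3p, miR-200c-3p and miR-429-3p share AAUACUG, and miR-200a-3p and miR-141-3p share AACACUG. Across the family the most alike pairs lie in different genomic clusters: miR-200a-3p and miR-141-3p differ at 2 of 22 bases, and so do miR-200b-3p and miR-200c-3p. How reads were split between such near-identical rows is not given in the sources used here. miR-96-5p and miR-182-5p share bases 2 to 7 of their seeds, and miR-183-5p has a seed of its own. The seed of miR-96-5p also occurs in miR-1271-5p, which had 0 counts in every library.

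In genome build mm10, miR-200b-3p (chr4:156055685-156055706), miR-200a-3p (chr4:156054911-156054932) and miR-429-3p (chr4:156053916-156053937) lie on the minus strand within 1.77 kb, in introns of Ttll10 (GENCODE M21). The second cluster, miR-200c-3p (chr6:124718324-124718346) and miR-141-3p (chr6:124717917-124717938), spans 0.407 kb on the minus strand, in an intron of the noncoding gene Gm15884. The third, miR-183-5p (chr6:30169711-30169732), miR-96-5p (chr6:30169506-30169528) and miR-182-5p (chr6:30165962-30165986), spans 3.75 kb on the minus strand outside any other annotated gene, 94.6 Mb from miR-200c. miR-205-5p (chr1:193507503-193507524, minus strand) lies in an exon of the noncoding gene 4631405K08Rik, and miR-203-3p (chr12:112130927-112130948, plus strand) in no annotated gene but its own. miR-203-3p is the one member whose row overlaps a row on the opposite strand, that of miR-203b-5p.

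Of the 10 members, 9 had at least 1 count and miR-203-3p had 0 in all 6 libraries. Together they held 711 counts. Library totals ranged from 1226187 to 1795831 counts in TAC and from 1818725 to 3509001 in sham. Counts were divided by the library total times its TMM factor and given per 1000000 (CPM). An upper limit for a count of 0, taken as 3 counts, lay between 1.82 and 2.82 CPM in TAC libraries and between 0.767 and 1.51 CPM in sham libraries. These limits and all intervals on counts cover counting error only. miR-203-3p therefore cannot be placed beyond these limits, and its 0 was not read as absence, because rows lying across from another miRNA were mostly empty (82 of 90 at 0 in every library, against 784 of 1873 with no such neighbour at any place).

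The heart label was matched by its muscle markers. miR-1a-3p, the main miRNA of cardiac and skeletal muscle, had 217000, 209000 and 254000 CPM in TAC 29, 78 and 81, against 114000, 142000 and 119000 CPM in sham 47, 68 and 69. The 4 muscle miRNAs miR-1a-3p, miR-133a-3p, miR-208a-3p and miR-499-5p together had between 1440 and 11600 times the counts of the 10 members in a library. Mature miRNAs are of similar length, so these counts were compared without a length correction. miR-1a-3p and miR-133a-3p lie at 2 places each in the genome and every member at 1. The sources used here do not say how reads with several places were counted, so these ratios are approximate. The members were thus minor species in every heart, and the ratio was lowest in sham 68 and highest in TAC 81.

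None of the 4 members that could be tested passed the test between TAC and sham, and for each of them the range among sham mice was wider than the gap between the group means. miR-200a-3p and miR-200b-3p averaged 5.13 ± 1.36 and 4.64 ± 2.47 CPM in TAC and 14.0 ± 13.7 and 13.2 ± 12.4 CPM in sham (SD, n = 3 each). miR-182-5p averaged 12.6 ± 8.44 CPM in TAC and 9.08 ± 5.96 CPM in sham. Sham 68 was the highest mouse for all but miR-429-3p of the miR-200 family, and without it the sham means of miR-200a-3p and miR-200b-3p were 6.37 and 6.17 CPM. Sham 47 lay below all 3 TAC mice for miR-200a-3p, miR-200c-3p and miR-141-3p.

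**Figure D1:**
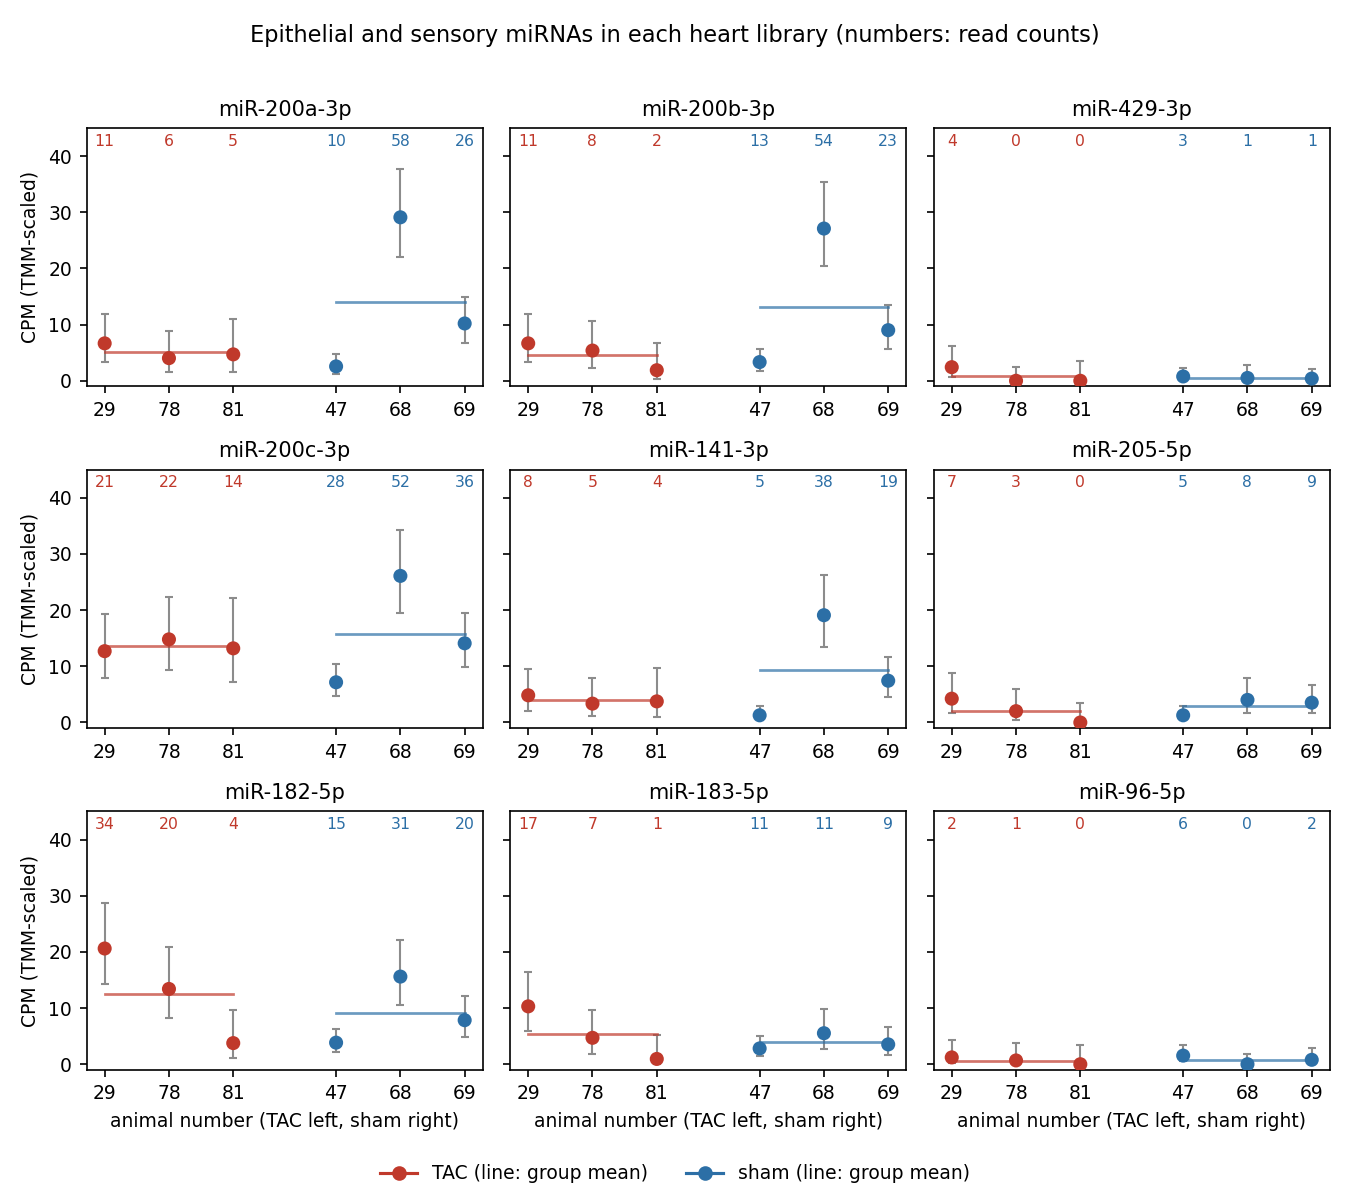
Each panel is a member with at least 1 count, each point a mouse (TAC red, left; sham blue, right), on the vertical axis the TMM-scaled CPM with its exact 95% Poisson interval for counting error; horizontal lines are group means and the numbers along the top are read counts. Sham 68 stands above the other 5 mice for miR-200a-3p, miR-200b-3p, miR-200c-3p and miR-141-3p, and TAC 29 is the highest mouse for miR-182-5p and miR-183-5p.

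miR-200a-3p had 11, 6 and 5 counts in TAC 29, 78 and 81, or 6.66, 4.03 and 4.70 CPM, against 10, 58 and 26 counts in sham 47, 68 and 69, or 2.56, 29.1 and 10.2 CPM. Sham 47 was the lowest mouse and sham 68 the highest, so the 3 TAC mice lay inside the sham range. The log2 fold change was -1.30 ± 0.83 (± SE, TAC over sham, edgeR adjusted p = 0.247). Without sham 47 it was -1.84 (edgeR adjusted p = 0.0397) and without sham 68 it was -0.17 (edgeR adjusted p = 0.841), so which sham mice were in the fit decided the call. Between sham mice the gap was larger than between the group means: sham 68 was 11.4 times sham 47 (exact 95% interval 5.77 to 25.0) and 2.86 times sham 69 (1.77 to 4.73).

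miR-200b-3p, encoded 0.774 kb away in the same cluster, had 11, 8 and 2 counts in TAC 29, 78 and 81, or 6.66, 5.38 and 1.88 CPM. Sham 47, 68 and 69 had 13, 54 and 23 counts, or 3.33, 27.1 and 9.01 CPM. The groups overlapped again, with sham 47 between the TAC mice. Its log2 fold change was -1.30 ± 0.80 (edgeR adjusted p = 0.234), and sham 68 was 8.16 times sham 47 (4.39 to 16.3).

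miR-429-3p, the third product of that cluster, had 4, 0 and 0 counts in TAC 29, 78 and 81, against 3, 1 and 1 in sham 47, 68 and 69. It did not follow its neighbours in sham 68, where miR-200a-3p had 58 counts. At counts this low no difference between the groups was detectable.

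miR-200c-3p, the most abundant member with 173 counts, was nearly level among TAC mice, at 12.7, 14.8 and 13.2 CPM in TAC 29, 78 and 81 (21, 22 and 14 counts). In sham 47, 68 and 69 it had 7.16, 26.1 and 14.1 CPM (28, 52 and 36 counts), so that sham 47 was below and sham 68 above every TAC mouse. The log2 fold change of -0.15 ± 0.45 (edgeR adjusted p = 0.811) had no steady sign: it was 0.41 without sham 68 and 0.14 with limma-voom.

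miR-141-3p, made from the same transcript as miR-200c-3p, had 8, 5 and 4 counts in TAC 29, 78 and 81, or 4.84, 3.36 and 3.76 CPM. In sham 47, 68 and 69 it had 5, 38 and 19 counts, or 1.28, 19.1 and 7.44 CPM. It was below the count filter and was not tested with the other miRNAs. Its largest gap was again within sham, where sham 68 was 14.9 times sham 47 (5.86 to 48.6).

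The sensory cluster was arranged differently. miR-182-5p had 34, 20 and 4 counts in TAC 29, 78 and 81, or 20.6, 13.4 and 3.76 CPM, against 15, 31 and 20 counts in sham 47, 68 and 69, or 3.84, 15.6 and 7.84 CPM. The highest mouse was TAC 29 and the lowest TAC 81, at 3.76 CPM beside 3.84 CPM in sham 47. The log2 fold change was 0.65 ± 0.60 (edgeR adjusted p = 0.412).

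miR-183-5p had 17, 7 and 1 counts in TAC 29, 78 and 81, or 10.3, 4.70 and 0.940 CPM. In sham 47, 68 and 69 it had 11, 11 and 9 counts, or 2.81, 5.52 and 3.53 CPM. TAC mice thus lay on both sides of the sham mice. Between TAC mice, TAC 29 was 5.47 times TAC 81 for miR-182-5p (exact 95% interval 1.95 to 21.2) and 10.9 times for miR-183-5p (1.71 to 457), where TAC 81 had 1 count. miR-96-5p, mutated in inherited hearing loss of mouse and human, had 2, 1 and 0 counts in TAC 29, 78 and 81 and 6, 0 and 2 in sham 47, 68 and 69, too few to compare.

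miR-205-5p of stratified and glandular epithelia had 7, 3 and 0 counts in TAC 29, 78 and 81, or 4.24, 2.02 and 0 CPM. In sham 47, 68 and 69 it had 5, 8 and 9 counts, or 1.28, 4.02 and 3.53 CPM. TAC 29 and sham 68 were the highest mice, TAC 81 and sham 47 the lowest, and the groups overlapped.

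The summed level of the 10 members was 69.6, 48.4 and 28.2 CPM in TAC 29, 78 and 81, against 24.6, 127 and 56.8 CPM in sham 47, 68 and 69. In means this was 48.7 ± 20.7 CPM in TAC and 69.5 ± 52.4 CPM in sham (SD, n = 3 each). The ratio of TAC to sham means was 0.701 with all mice, and 1.20 without sham 68, when the sham mean was 40.7 CPM. Without TMM scaling, as a share of library totals, the sum was 44.1 CPM in TAC and 76.8 CPM in sham, a difference of -32.7 CPM that was -1.58 CPM without sham 68. The sum was a description and was given no test.

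**Figure D2:**
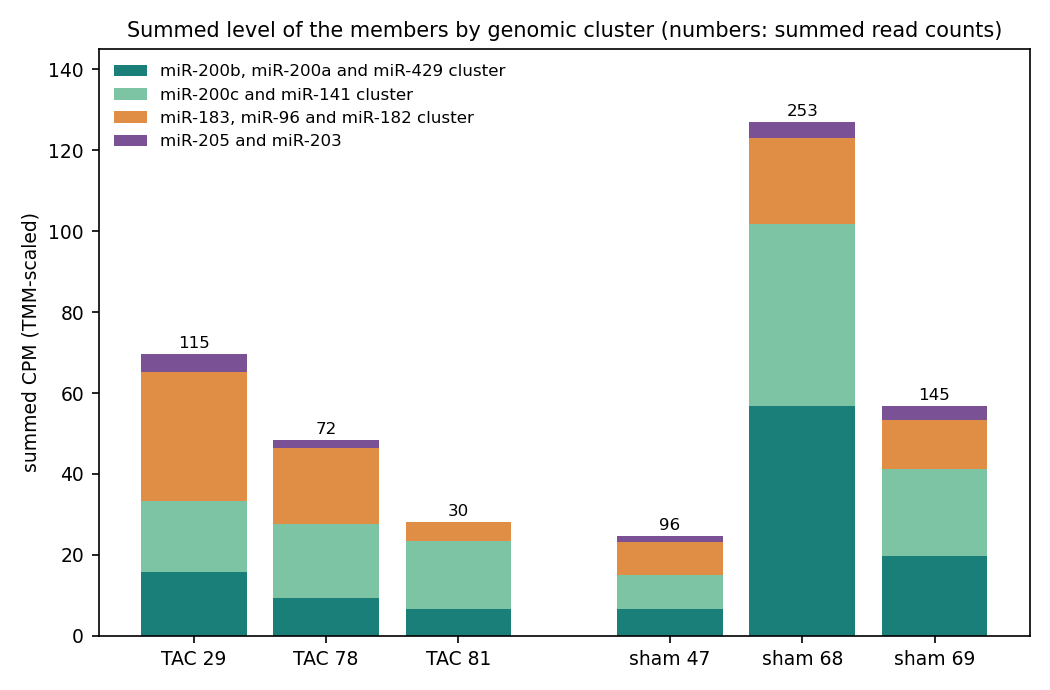
Bars give the summed TMM-scaled CPM of the members in each mouse, stacked by genomic cluster, with the summed read count above each bar (TAC left, sham right). Sham 68 reached 127 CPM, mostly from both miR-200 clusters, while the miR-183 cluster was the largest block in TAC 29 at 32.1 CPM.

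By cluster, the 5 miR-200 family members summed to 33.3, 27.6 and 23.5 CPM in TAC 29, 78 and 81. They summed to 15.1, 102 and 41.1 CPM in sham 47, 68 and 69. Without sham 68 both group means were 28.1 CPM. The miR-183 cluster summed to 32.1, 18.8 and 4.70 CPM in TAC 29, 78 and 81, against 8.19, 21.1 and 12.1 CPM in sham 47, 68 and 69. The miR-200 family was therefore spread widest among sham mice and the miR-183 cluster among TAC mice. The order of the mice also differed between the clusters, with TAC 29 first for the miR-183 cluster and sham 68 first for the miR-200 family.

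Of the 10 members, 4 passed the filter on low counts (miR-200a-3p, miR-200b-3p, miR-200c-3p and miR-182-5p), and 0 of these 4 were called at an adjusted p under 0.05 by edgeR, where 30.5% of the 354 tested miRNAs were called. At an unadjusted p under 0.05 edgeR also gave 0 of 4, and limma-voom called 0. DESeq2 called 0 too, but gave no adjusted p for miR-200a-3p and miR-200b-3p (unadjusted p = 0.0331 and 0.0307). The values of TAC and sham overlapped for all 4 tested members, while 51.4% of the tested miRNAs had groups without overlap. miR-200a-3p and miR-200b-3p passed the filter through their levels in sham 68, sham 69 and TAC 29.

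Without a filter on low counts the outcome was different for a pair of members. In that fit, over 1100 rows with at least 1 count, 9.73% were called, and 2 of the 9 members with a count were among them: miR-200a-3p at a log2 fold change of -1.44 ± 0.37 (edgeR adjusted p = 0.00201) and miR-200b-3p at -1.44 ± 0.38 (edgeR adjusted p = 0.00274), both lower in TAC. miR-141-3p was at -1.20 ± 0.45 (edgeR adjusted p = 0.0639). The size of the changes was close to that with the filter, while the standard errors were 0.37 and 0.38, against 0.83 and 0.80 with it. The values behind these calls are the same ones, in which sham 47 lies among or below the TAC mice. That fit also called miR-6240, a row named after its values were seen (edgeR adjusted p = 4.29e-05, against 0.485 with the filter). Its SE was 0.18, against 1.08 with the filter. It had 51.4, 57.8 and 672 CPM in TAC 29, 78 and 81, against 29.4, 307 and 52.9 CPM in sham 47, 68 and 69. A call in the unfiltered fit thus did not require the groups to be apart. With the filter and without sham 68 the log2 fold change of miR-200b-3p was -0.23 (edgeR adjusted p = 0.771), close to that of miR-200a-3p. Over the 9 members the unfiltered log2 fold changes had a median of -0.40, with 6 below 0 and 3 above, beside a median of -0.14 over all 1100 rows.

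How far sham 68 stood from the other sham mice was then set beside the same quantity for all tested miRNAs, a comparison chosen after the counts were seen. The CPM in sham 68 divided by the mean of sham 47 and sham 69 had a median of 1.01 over the 354 miRNAs. For miR-200a-3p it was 4.57, for miR-200b-3p 4.4, for miR-182-5p 2.67 and for miR-200c-3p 2.46, which ranked 3, 4, 6 and 8 of 354 from the top. In the same order their coefficients of variation across sham mice were 98%, 94.5%, 65.7% and 60.7%, beside a median of 13.7%. These members averaged 8.895 to 14.67 CPM over the 6 libraries, whereas the medians include miRNAs up to 175900 CPM. Counting error alone raises the coefficient and spreads the ratio at low counts, and no comparison at like abundance was made. Only tested members were ranked. miR-200a-3p and miR-200b-3p had passed the filter in part through sham 68, so their high ranks are partly set by that filter. Of the untested members, miR-141-3p had 19.1 CPM in sham 68, beside a mean of 4.36 CPM in sham 47 and sham 69. For miR-183-5p, miR-205-5p, miR-429-3p and miR-96-5p these values were 5.52 beside 3.17, 4.02 beside 2.4, 0.502 beside 0.58 and 0 beside 1.16 CPM. Across TAC mice the coefficient was 8.07% for miR-200c-3p, below the median of 14.1%, while it was above that median at 67.0% for miR-182-5p, 53.3% for miR-200b-3p and 26.6% for miR-200a-3p. TAC mice had 14 to 22 counts of miR-200c-3p and 5 to 11 of miR-200a-3p, so these coefficients are not separated from counting error.

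**Figure D3:**
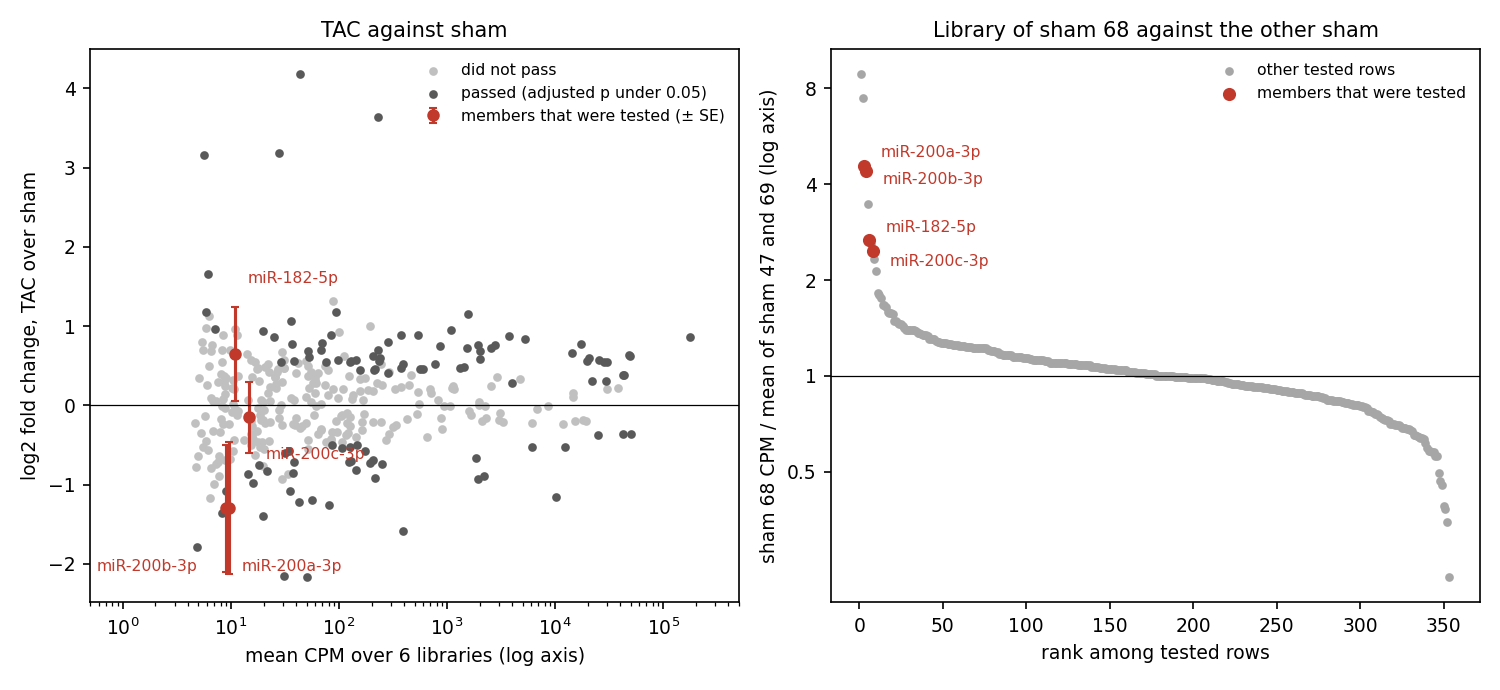
Left, the log2 fold change of TAC over sham against the mean CPM (log axis) for 354 tested miRNAs, with the 4 tested members in red (± SE); right, the CPM of sham 68 over the mean of sham 47 and sham 69 (log axis), ranked from highest to lowest. The members lie among the miRNAs that did not pass on the left and hold ranks 3, 4, 6 and 8 on the right.

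The other rows in the top 8 of that ranking, named after their values were seen, were miR-6238 (8.85), miR-6240 (7.46), miR-6236 (3.47) and miR-208b-3p (2.59), so the high ratio was not confined to the members. miR-6238 had 27.2, 17.5 and 363 CPM in TAC 29, 78 and 81, against 14.1, 215 and 34.5 CPM in sham 47, 68 and 69. miR-208b-3p, from an intron of the slow myosin gene Myh7, had 5.45, 13.4 and 13.2 CPM in TAC 29, 78 and 81, against 7.67, 19.1 and 7.05 CPM in sham 47, 68 and 69. miR-6238 was highest in TAC 81 and next in sham 68, whereas the summed level of the members was lower in TAC 81 than in TAC 29 and TAC 78.

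Ratios between members within a library do not depend on its depth. miR-200a-3p over miR-200b-3p, products of a single cluster, was 1.0, 0.75 and 2.5 in TAC 29, 78 and 81 and 0.769, 1.07 and 1.13 in sham 47, 68 and 69, and every exact 95% interval held 1. Both kept nearly equal counts in sham mice, while their levels in sham 68 were 11.4 and 8.16 times those in sham 47. miR-141-3p over miR-200a-3p, which share a seed but not a cluster, stayed between 0.727 and 0.833 in TAC and between 0.5 and 0.731 in sham.

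The pair miR-141-3p and miR-200c-3p, from a single cluster, was less even. Summed over mice the ratio was 0.298 in TAC (exact 95% interval 0.163 to 0.520) and 0.534 in sham (0.386 to 0.734). These intervals cover counting error in the pooled reads and not the spread between mice. Within sham it was 0.179 in sham 47, 0.731 in sham 68 and 0.528 in sham 69, and all 3 TAC mice, at 0.381, 0.227 and 0.286, lay between sham 47 and sham 69. Likewise miR-200a-3p over miR-200c-3p was 0.524, 0.273 and 0.357 in TAC 29, 78 and 81, against 0.357, 1.12 and 0.722 in sham 47, 68 and 69. miR-200c-3p was thus the steadier product, with more counts than miR-200a-3p in every mouse but sham 68.

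**Figure D4:**
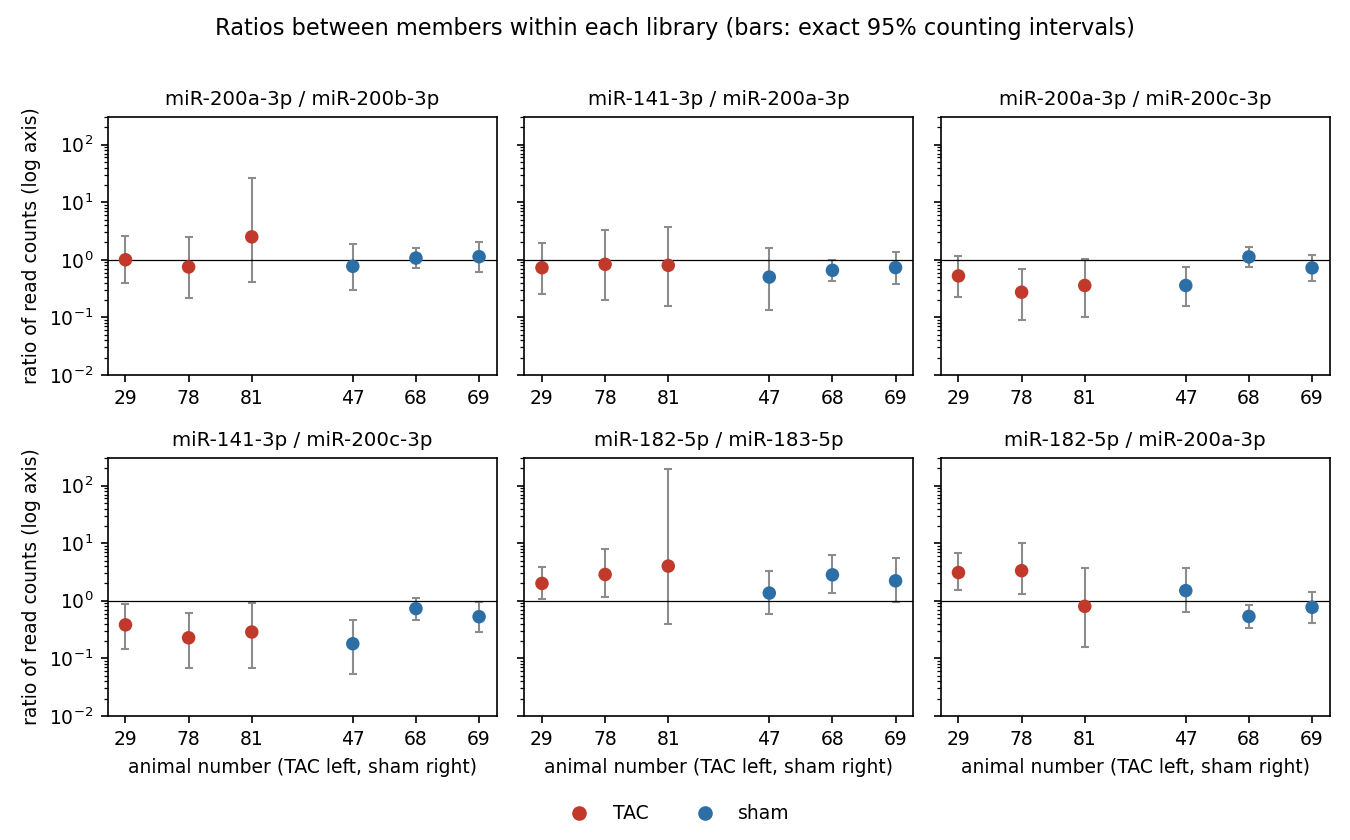
Each panel gives the ratio of read counts of a pair of members in each mouse on a log axis (TAC red, left; sham blue, right) with its exact 95% interval for counting error. miR-200a-3p over miR-200b-3p lies between 0.75 and 1.13 in 5 mice and at 2.5 in TAC 81, on 5 against 2 counts, while the ratios to miR-200c-3p are higher in sham 68 than in the other mice.

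miR-182-5p over miR-183-5p was 2.32 in summed TAC counts (exact 95% interval 1.43 to 3.87) and 2.13 in summed sham counts (1.37 to 3.38). By mouse it was 2.0, 2.86 and 4.0 in TAC 29, 78 and 81, the last on 4 against 1 counts. In sham 47, 68 and 69 it was 1.36, 2.82 and 2.22. The balance of this pair was thus close between the groups in summed counts. Across clusters the balance was not close: miR-182-5p over miR-200a-3p was 3.09, 3.33 and 0.800 in TAC 29, 78 and 81, against 1.5, 0.534 and 0.769 in sham 47, 68 and 69. TAC 29 and TAC 78 were above every sham mouse, and TAC 81 lay among them.

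The opposite arms of the 10 hairpins were nearly empty, with 11 counts in all against 711 for the members. miR-200a-5p had 3, 0 and 1 counts in TAC 29, 78 and 81 and 0, 1 and 3 in sham 47, 68 and 69. miR-200b-5p had 0 in each TAC mouse and 1, 1 and 0 in sham 47, 68 and 69, and miR-183-3p had 1 count, in sham 68. The other 7 were at 0 in every library, and 0 of the 10 were tested. Where a hairpin had reads, most thus fell on the arm that is known as its main product. The miR-203 hairpin had 0 counts on either arm, and the row of miR-203-5p also overlaps one on the opposite strand, that of miR-203b-3p.

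Beside the members, the summed levels of 5 other lists were set out for each mouse. The muscle list had 273000, 274000 and 326000 CPM in TAC 29, 78 and 81, against 152000, 183000 and 165000 CPM in sham 47, 68 and 69, with 4 of 4 members higher in TAC by edgeR, where 30.5% of all tested miRNAs were called in either direction. With unscaled library totals all 4 kept their sign, but miR-133a-3p and miR-208a-3p were not called (edgeR adjusted p = 0.0780 and 0.181). miR-208a-3p was also not called with totals without the 5 most abundant miRNAs (edgeR adjusted p = 0.0786). With RLE and upper quartile scaling all 4 were called. A list of 21 miRNAs typical of other organs, such as miR-192-5p of gut and liver, summed to 1870 to 2170 CPM in TAC and 1320 to 1570 CPM in sham. Of the 10 tested members of that list, miR-192-5p, miR-215-5p and miR-206-3p rose, miR-34c-5p fell and 6 did not pass, so that 4 of 10 were called beside that 30.5%. With library totals miR-215-5p and miR-206-3p were not called (edgeR adjusted p = 0.146 and 0.129). Nor were they with totals without the 5 most abundant miRNAs (edgeR adjusted p = 0.0764 and 0.0528). With upper quartile scaling miR-206-3p was called and miR-215-5p was not (edgeR adjusted p = 0.0406 and 0.054). With RLE scaling both were called. Another 5 were at 0 in every library, of which miR-216a-5p of pancreas is free of an opposite-strand row, while miR-122-5p of liver, miR-216b-5p and both arms of miR-9 overlap one. The sums of mesenchyme, leukocyte and red blood cell miRNAs ranged from 70700 to 73200, 1360 to 1490 and 1600 to 3000 CPM in TAC, against 47600 to 61500, 993 to 1390 and 963 to 1120 CPM in sham. The mesenchyme sum was carried by miR-143-3p of smooth muscle, which rose (59000 CPM in TAC, 37800 CPM in sham), while miR-199a-3p, miR-199a-5p and miR-214-3p fell, at log2 fold changes of -0.53, -0.89 and -1.58, and miR-145a-5p did not pass. Of the leukocyte list miR-150-5p rose and 3 did not pass, and of the red blood cell list miR-451a rose and miR-144-3p did not pass. In these lists 0 of 5, 1 of 5 and 1 of 3 rows were at 0 in every library, the empty ones being miR-142a-3p and miR-486a-5p, which overlap an opposite-strand row. In sham 68 none of the 5 sums was more than 1.5 times that of the other sham mice, while that of the members was 5.17 times sham 47 and 2.24 times sham 69. Whether the muscle or other lists played a part in the members' levels was not tested.

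**Figure D5:**
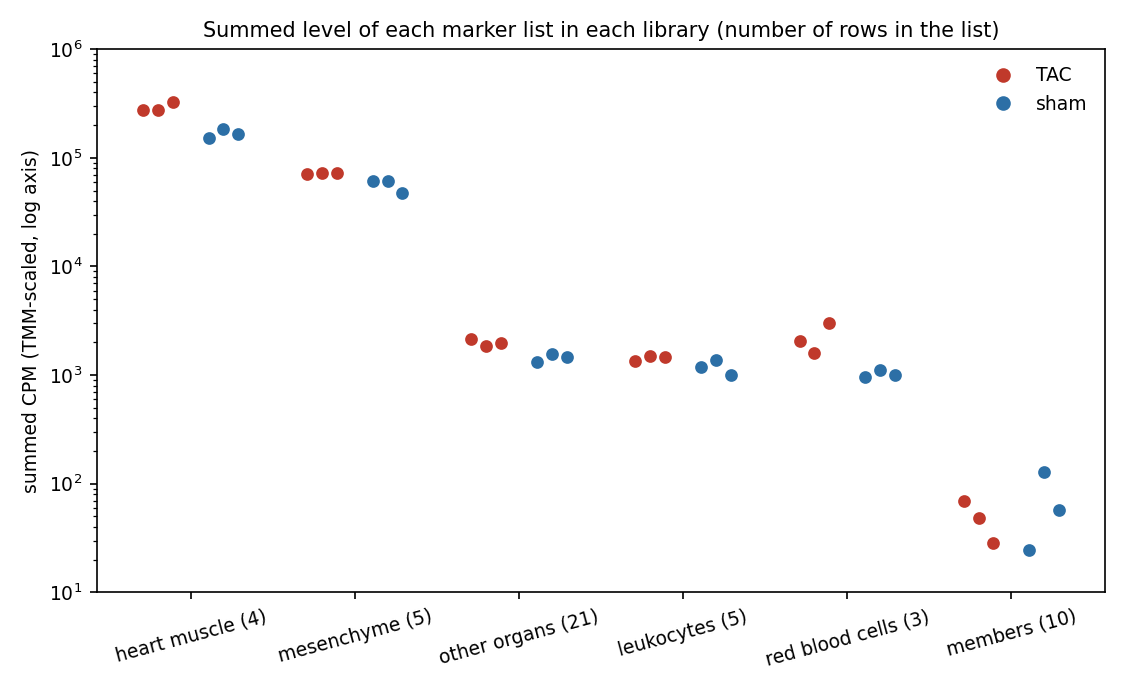
Points give the summed TMM-scaled CPM of each list in each mouse on a log axis (TAC red, left; sham blue, right), with the number of rows of the list in brackets. The members lie between 24.6 and 127 CPM, below the other lists in every mouse, and their sham mice are spread wider than those of any other list shown.

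Among miRNAs known from other epithelia, miR-375-3p of endocrine and secretory cells had 0.605, 0 and 1.88 CPM in TAC 29, 78 and 81, against 0.256, 2.51 and 1.57 CPM in sham 47, 68 and 69. miR-31-5p of squamous epithelium had 20.6, 15.5 and 25.4 CPM in TAC and 22.0, 18.1 and 18.4 CPM in sham, in the same order of animals. Sham 68 was the highest mouse for miR-375-3p, at the level of a few counts, and not for miR-31-5p. It was also the highest for miR-184-3p of cornea and lens (10.3, 32.3 and 18.8 CPM in TAC, 27.9, 53.7 and 36.4 CPM in sham). The same held for miR-34c-5p of ciliated airway (67.2, 37.0 and 36.7 CPM in TAC, 116, 123 and 102 CPM in sham). It was not the highest for miR-34b-5p and miR-449a-5p, at few counts. For miR-192-5p, miR-194-5p and miR-215-5p every TAC mouse was above sham 68.

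The tested miRNAs whose log2 CPM over the 6 libraries lay closest to the log2 of the summed members, out of 350 candidates, were miR-300-3p (Pearson r = 0.981), miR-1981-3p (0.978), miR-7680-3p (0.903), miR-1943-5p (0.884) and miR-148b-5p (0.877). This is a description of 6 libraries, given without a p, and the highest of 350 values are high in part because they were picked. miR-300-3p had 41.1, 39.0 and 32 CPM in TAC 29, 78 and 81, against 32, 55.7 and 39.6 CPM in sham 47, 68 and 69. Its mice were thus in nearly the same order as for the members (Spearman rho = 0.943) but over a far smaller range. None of these 5 was called between TAC and sham.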

How the data were processed

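Raw read counts for each mature miRNA were deposited by the authors in a single table. The submitters' processing notes list HISAT2, StringTie and DESeq2 and the genome build mm10, with no role for each. The sources used here do not name the counter, the trimming, the strand setting or the treatment of reads with several places. All 6 columns were matched to a mouse by the animal number, which nothing pairs across groups. Nothing beyond the animal numbers says how the mice were bred or batched.

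All 1966 rows were fitted with edgeR 4.0.16 in R 4.3.3 (filterByExpr, TMM, quasi-likelihood F-test, Benjamini-Hochberg over all tested rows), and called at an adjusted p under 0.05. The SE is the log2 fold change over the square root of F. The pipeline was tested on simulated data. Alternatives were DESeq2 1.42.0, limma-voom (limma 3.58.1), 4 scalings, 2 filters, counts divided by places, and leaving out each mouse. Poisson and binomial intervals are exact at 95% (scipy 1.17.1). log2 CPM used a prior count of 2. Named miRNAs are the members, their opposite arms, marker lists and the 5 most alike. Members and lists were chosen with earlier results of these data known.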

Additional observations from a re-analysis of the deposited data

How the results depend on the processing

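No paired analysis was possible because TAC and sham share no animal numbers. Of the 4 tested members, 0 were called by edgeR with TMM, also with RLE, upper quartile and unscaled totals, totals without the 5 most abundant miRNAs, the stricter filter, counts divided by places, DESeq2 and limma-voom. Without a low-count filter 2 were called, with miR-200a-3p and miR-200b-3p both at -1.44. That fit also called miR-6240, whose groups overlapped. Leaving out single mice gave 0 to 1 members called, with miR-200a-3p from -1.84 (without sham 47, edgeR adjusted p = 0.0397) to -0.17 (without sham 68), miR-200b-3p from -1.80 to -0.23, miR-200c-3p from -0.52 to 0.41, and miR-182-5p from 0.09 (without TAC 29) to 1.25 (without sham 68). miR-200c-3p turned positive without sham 68 (0.41) and with limma-voom (0.14), and kept its sign in the other 13 alternatives. The difference in the summed share of unscaled totals ran from -57.5 (without sham 47) to -1.58 CPM (without sham 68). With TMM scaling the sign turned without sham 68, at 48.7 CPM in TAC and 40.7 CPM in sham. The cause of these shifts was not tested. DESeq2 gave miR-200a-3p and miR-200b-3p no adjusted p, at unadjusted p = 0.0331 and 0.0307.

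Over all miRNAs 108 were called, and between 64 (without TAC 81) and 83 when 1 mouse was left out, with 69 without TAC 78. The calls split into 68 higher and 40 lower in TAC with TMM, 50 and 56 with RLE, 41 and 63 with upper quartile, 35 and 82 without the 5 most abundant and 25 and 102 with totals. The median log2 fold change was 0.07 with TMM and -0.24 with totals. Members at a few counts per library, and the 6 that were not tested, are limited by depth.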
